A study of Mus musculus with 6 samples.

Results

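The genes described here copy the genome and supply the nucleotides for it. They were a fixed list of 41 genes, from the origin recognition complex to thymidine kinase. The list was taken by gene symbol, with the probe set annotated to that symbol alone that had the highest mean over all arrays. Of the 41, 40 were measured, among 22180 genes on the array. Rfc4, for a clamp loader subunit, had no probe set of its own, since its probe set is also annotated to Eif4a2.

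The arrays came from macrophages grown out of bone marrow of 3 C57BL/KaLwRij mice with M-CSF for 7 days and then kept overnight with 5TGM1-luc cells, a dividing mouse myeloma line that carries luciferase. For the next 3 days the cocultures had either 0.5 nM of an antibody against mouse CSF1R or an IgG control antibody, whose dose is not given separately. Both groups therefore had the same M-CSF growth and the same myeloma cells, and both were washed 4 times before RNA was taken. Each group has 3 arrays of the Mouse Gene 2.0 ST type, and the labels tie no array to a mouse, so the p-values rest on the spread from array to array, which may be only technical. Values below are log2 signal per probe set, which can be compared between arrays for 1 gene but not between genes.

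DNA replication starts at origins, where the origin recognition complex, CDC6 and CDT1 load the ring of MCM2 to MCM7 in G1 phase, a step called licensing. CDC45 and the GINS complex turn the loaded ring into the moving helicase. DNA polymerase alpha with primase then starts each strand, polymerases delta and epsilon extend it on the sliding clamp PCNA, and FEN1 and LIG1 join the fragments. Ribonucleotide reductase, thymidylate synthase, thymidine kinase and dUTPase supply the deoxynucleotides. Cells that leave the cell cycle make little RNA from most of these genes, and CSF1R signalling is known to drive macrophages through the cycle.

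On the whole array, 28.5% of genes passed the test (limma, Benjamini-Hochberg adjusted p under 0.05 over all genes), 16.0% as lower and 12.5% as higher with the antibody. That was 3548 lower and 2766 higher genes, so 43.8% of the calls were higher, against 59.2% after cyclic loess scaling (3411 higher and 2346 lower). Array medians lay between 4.88 and 4.95. Csf1r, whose protein the antibody binds, averaged 11.72 ± 0.05 with the antibody and 10.60 ± 0.05 with IgG (SD, n = 3 each), and so does not check the labels. All 15 macrophage markers measured lay above the array medians in both groups. All of them were higher with the antibody, with a median difference of 1.13. Plasma cell markers, which the washed myeloma cells would carry, were lower for 12 of 17 and higher for 0, with a median difference of −0.41.

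Replication genes fell together. Of the 40 measured, 37 were lower with the CSF1R antibody, 1 was higher (Rfc2) and 2 did not pass the test (Orc1 and Rfc3), beside 16.0% lower over all genes. The median difference was −0.48 on the log2 scale, beside −0.02 over all genes. The 37 that fell stood at 60.7% to 82.3% of their IgG level, so none reached a 2-fold change. For all 37, every antibody array lay below every IgG array, as did 22.7% of all genes. All 40 lay above the receptor-gene level, the log2 signal of 4.92 under which 95% of odorant and pheromone receptor genes lay, which macrophages are not thought to use. Genes of low signal pass such a test less easily. The test was therefore refitted, with its own adjustment, on genes of higher signal only. Among the 11090 genes above the median signal, 36.4% were then lower and 25.4% higher. Among the 13116 above the receptor-gene level, 30.8% were lower and 22.4% higher. Against either set the members' count was 37 lower and 1 higher. In bulk RNA, fewer dividing cells and less replication RNA per cell cannot be told apart.

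**Figure D1:**
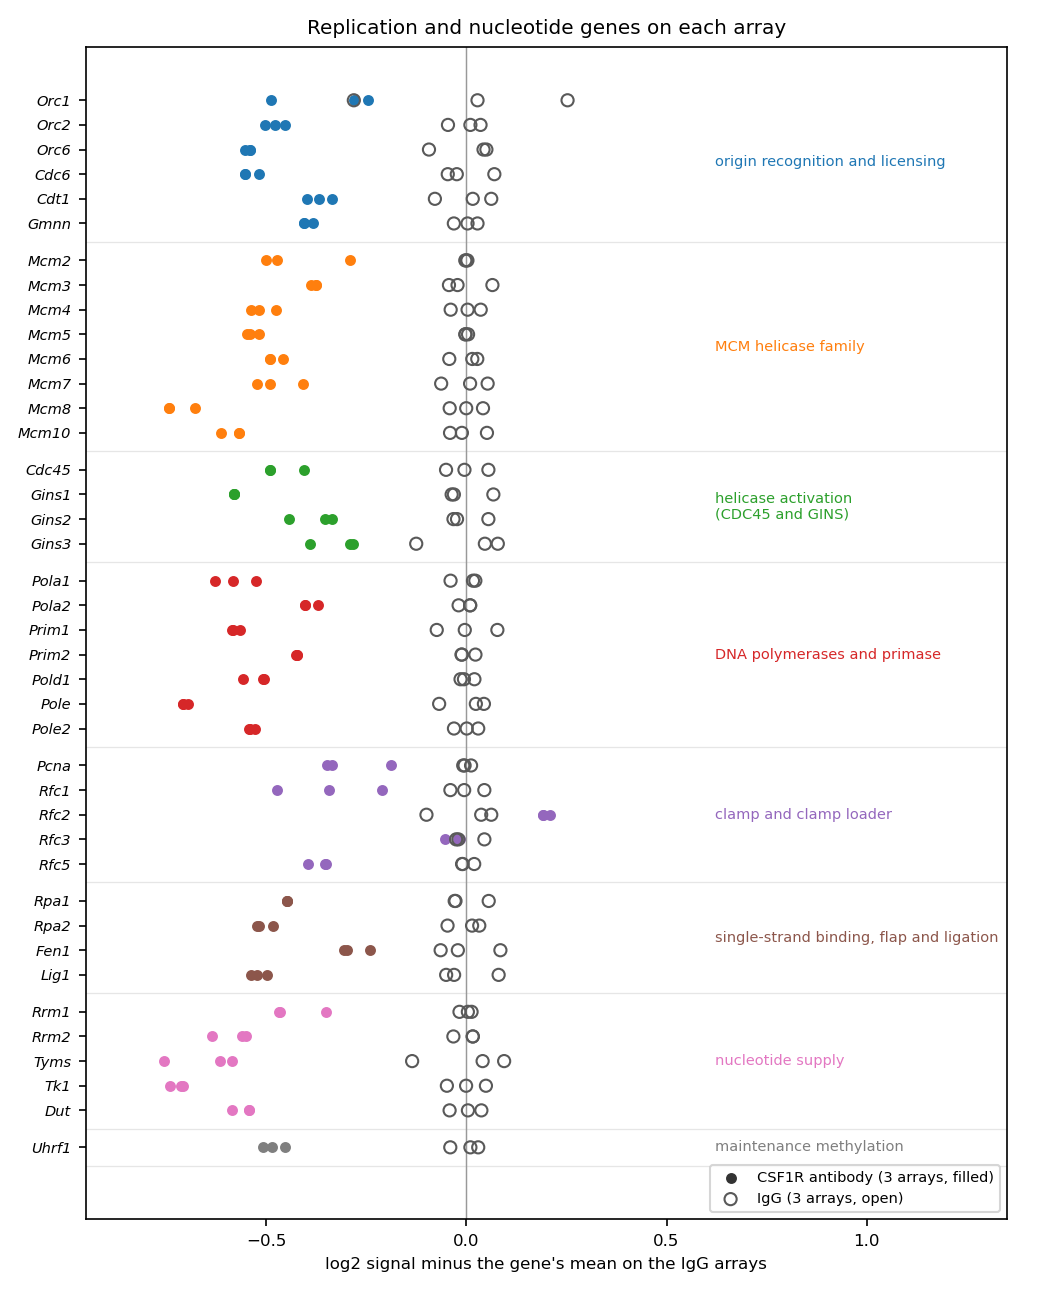
Each row is 1 gene, and the x axis gives its log2 signal minus its own mean over the IgG arrays. Filled points are the 3 CSF1R antibody arrays, coloured by role, and open circles the 3 IgG arrays. Most filled points lie between −0.2 and −0.8, apart from the open circles near 0; Rfc2 lies above its IgG arrays, and Rfc3 and Orc1 overlap theirs.

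The genes that mark and license origins fell in 5 of 6 cases, with a median of −0.44. Cdc6, which loads the MCM ring, had log2 signals of 8.37, 8.41 and 8.37 on the antibody arrays, against 8.88, 8.90 and 8.996 on the IgG arrays. No antibody array came near the IgG arrays, and the difference was −0.54 (SE 0.05; limma adjusted p = 0.00040). Its partner Cdt1 fell by 0.37 (SE 0.05), and Gmnn, whose product geminin blocks CDT1 after licensing, fell by 0.40 (SE 0.04). The loader and its inhibitor were thus both lower. Orc6 and Orc2, subunits of the origin recognition complex, stood at 68.6% and 71.8% of their IgG level.

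Orc1, the subunit of that complex known to come and go with the cell cycle, was the exception in this group. It had log2 signals of 5.57, 5.53 and 5.33 with the antibody, against 5.53, 6.07 and 5.84 with IgG. The groups overlap because IgG replicate 1 lies among the antibody arrays. The difference was −0.34 (SE 0.14; adjusted p = 0.14), and 1 array could decide it. Without IgG replicate 1 it was −0.48 and passed the test (adjusted p = 0.032), and without IgG replicate 2 it was −0.21 (adjusted p = 0.32).

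All 8 genes of the MCM family fell, with a median of −0.49. For the 6 subunits of the MCM2 to MCM7 ring, which work in equal numbers, the differences ran from −0.38 for Mcm3 to −0.54 for Mcm5. Mcm5 had log2 signals of 9.59, 9.62 and 9.60 with the antibody, against 10.13, 10.13 and 10.14 with IgG, with no overlap. The 95% intervals of all 6 subunits overlapped, from −0.50 to −0.26 for Mcm3 and from −0.64 to −0.44 for Mcm5. Mcm2 was the least even of them on the antibody arrays, at 9.29, 9.26 and 9.47, against 9.76 on each IgG array.

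Mcm8 fell more than any of the ring genes by its estimate. Its 95% interval overlapped those of Mcm4, Mcm5 and Mcm7 but not those of Mcm2, Mcm3 and Mcm6. No test of these differences was made. The product of Mcm8 forms a separate helicase with MCM9 that acts in repair of DNA breaks and is not part of the replicative ring. The values below are those of Mcm8. Its log2 signals were 7.41, 7.47 and 7.41 with the antibody, against 8.11, 8.15 and 8.19 with IgG. With Tk1 this was the largest fall among the members, to 60.7% of the IgG level (−0.72, SE 0.05; adjusted p = 9.3e-05), with a 95% interval from −0.84 to −0.61. Mcm10, which helps to switch on the loaded helicase, fell by 0.58 (SE 0.05).

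MCM genes are classical targets of E2F transcription factors, and their promoters were searched for E2F-type motifs. A part of E2F factors in the fall was not tested. The windows ran from 250 bases before to 50 bases after each gene's start (RefSeq, GRCm38.p6), so that the gene begins right after base 250 of 300. An E2F-type match was any of TTTCCCGC, TTTCGCGC, TTTGCCGC, TTTGGCGC or GGCGGGAA on either strand; the first and the last of these overlap within longer sites. Mcm3, Mcm5, Mcm6, Mcm7 and Mcm8 held such a match, and the first match in Mcm3, Mcm5, Mcm6 and Mcm7, of the ring, is shown in capitals with 10 bases on each side, 5′ to 3′ on the gene's strand.
Mcm3 (chr1:20820277-20820304, minus strand): aaacttccgtGGCGGGAAaacttgggaa
Mcm5 (chr8:75109346-75109373, plus strand): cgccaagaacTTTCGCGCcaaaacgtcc
Mcm6 (chr1:128359798-128359825, minus strand): ggcgtatgctTTTGGCGCgaaaagtgcg
Mcm7 (chr5:138172031-138172058, minus strand): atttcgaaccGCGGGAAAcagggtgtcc
The 4 matches lie at different places in their windows, with the match starting at base 86 in Mcm7, 98 in Mcm5, 141 in Mcm6 and 269 in Mcm3.

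The whole window of Mcm8 is shown because it had, with Tk1, the largest fall. Its single E2F-type match, in capitals, lies at bases 290 to 297, within the first 50 bases of the gene.
Mcm8 (chr2:132815891-132816190, plus strand): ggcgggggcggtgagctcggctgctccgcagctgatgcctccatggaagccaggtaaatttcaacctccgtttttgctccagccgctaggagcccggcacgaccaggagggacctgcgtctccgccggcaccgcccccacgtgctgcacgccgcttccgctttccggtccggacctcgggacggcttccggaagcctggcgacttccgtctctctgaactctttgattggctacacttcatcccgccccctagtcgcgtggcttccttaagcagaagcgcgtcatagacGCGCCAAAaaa
The windows of Mcm2 and Mcm10 held no match, and Mcm4, also of the ring, was not searched.

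The activators of the helicase all fell, with a median of −0.42 over 4 genes. Gins1 had the same log2 signal, 6.92, on all 3 antibody arrays, against 7.47, 7.57 and 7.47 with IgG. Its fall of 0.58 (SE 0.05; adjusted p = 0.00025) rests on an antibody group with no spread at all. Cdc45 fell by 0.46 (SE 0.05) and Gins2 by 0.38 (SE 0.05). Gins3 moved least, at 8.22, 8.32 and 8.33 against 8.66, 8.48 and 8.69 with IgG (−0.32, SE 0.07; adjusted p = 0.014). Its call was lost without antibody replicate 1 (adjusted p = 0.053), IgG replicate 1 (0.055) or IgG replicate 3 (0.051), and with cyclic loess scaling (−0.21; adjusted p = 0.065).

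The polymerases and primase fell in 7 of 7 cases, with a median of −0.54. Pole, the catalytic subunit of polymerase epsilon, which extends the leading strand, had log2 signals of 7.89, 7.88 and 7.88 with the antibody, against 8.52, 8.63 and 8.61 with IgG. That was 61.4% of the IgG level (−0.70, SE 0.05; adjusted p = 0.00012). Pole has a second probe set, below the receptor-gene level in both groups, and with the mean of both the fall was 0.35 (adjusted p = 0.0054). Its partner subunit gene Pole2 fell by 0.54 (SE 0.04), with a 95% interval from −0.64 to −0.43, and that of Pole ran from −0.82 to −0.58. Pold1, the catalytic subunit of polymerase delta on the lagging strand, fell by 0.52 (SE 0.04).

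Within the polymerase alpha and primase complex, the catalytic subunit genes Pola1 and Prim1 fell by 0.58 each (SE 0.05 for both). The accessory subunit genes Pola2 and Prim2 fell by 0.39 and 0.42 (SE 0.04 for both). The 95% intervals of the pairs overlapped, from −0.70 to −0.46 for Pola1 and from −0.50 to −0.29 for Pola2, and no test of the difference was made.

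The sliding clamp and its loader were the least even group, with 3 lower, 1 higher and 1 not past the test among 5 measured, and a median of −0.29. Pcna, the clamp, had log2 signals of 11.11, 11.12 and 11.27 with the antibody, against 11.45, 11.47 and 11.45 with IgG. Antibody replicate 3 lay nearest the IgG arrays, and the fall was 0.29 (SE 0.06; adjusted p = 0.0097), to 81.8% of the IgG level. With cyclic loess scaling it was −0.17 (adjusted p = 0.037). The loader genes Rfc5 and Rfc1 fell by 0.37 (SE 0.04) and 0.34 (SE 0.07). The call of Rfc1 was lost without antibody replicate 1 (adjusted p = 0.050), IgG replicate 2 (0.050) or IgG replicate 3 (0.057), and with cyclic loess (−0.23; adjusted p = 0.054).

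Rfc2, another subunit of the same loader, was the only member called higher. It had log2 signals of 7.69, 7.71 and 7.69 with the antibody, against 7.54, 7.56 and 7.40 with IgG, and the groups did not overlap. The rise was 0.20 (SE 0.06; adjusted p = 0.044) and was fragile. It did not pass without antibody replicate 1 (adjusted p = 0.10), antibody replicate 2 (0.12), antibody replicate 3 (0.087), IgG replicate 1 (0.071) or IgG replicate 3 (0.081), nor after quantile normalization (0.060). The sign was positive in all these fits, and with cyclic loess the rise was 0.30 (adjusted p = 0.010). Rfc3, a further loader subunit, had 6.35, 6.39 and 6.39 with the antibody against 6.45, 6.39 and 6.38 with IgG. The groups overlapped, and the difference of −0.03 (95% interval from −0.14 to 0.08; adjusted p = 0.71) turned positive with median centring or cyclic loess.

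Rfc3 had the smallest change of all members, and its promoter window is shown for that reason. It holds E2F-type matches in capitals at bases 241 to 248, just before the start of the gene, and on its first 8 bases.
Rfc3 (chr5:151651159-151651458, minus strand): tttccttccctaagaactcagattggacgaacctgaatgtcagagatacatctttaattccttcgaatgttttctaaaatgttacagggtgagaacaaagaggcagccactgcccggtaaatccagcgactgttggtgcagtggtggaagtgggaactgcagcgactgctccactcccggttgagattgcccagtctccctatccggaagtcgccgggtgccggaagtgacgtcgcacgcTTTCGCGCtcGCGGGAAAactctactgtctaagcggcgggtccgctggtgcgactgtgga
A match of this kind also stood in the window of Mcm8, among the genes that fell most. Both windows were chosen by the size of the change, and a relation between match and change was not tested.

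The genes that coat single strands and join fragments fell in 4 of 4 cases, with a median of −0.48. Lig1, the ligase of the lagging strand, fell by 0.52 (SE 0.05) and Rpa2, a subunit of the single-strand binding complex, by 0.51 (SE 0.05). Rpa1, the large subunit of that complex, had the same log2 signal, 9.09, on all 3 antibody arrays, against 9.51, 9.60 and 9.51 with IgG (−0.45, SE 0.05). Fen1, the flap nuclease, fell least, by 0.28 (SE 0.06; adjusted p = 0.00996), and with cyclic loess its difference was −0.17 (adjusted p = 0.070). Rpa1 and Fen1 each have a second probe set, and with the mean of both the differences were −0.17 (adjusted p = 0.085) and −0.16 (adjusted p = 0.23). The second probe set of Rpa1 averaged 4.16 with the antibody and 4.05 with IgG, below the receptor-gene level, and that of Fen1 averaged 6.25 with the antibody and 6.29 with IgG, above it.

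Nucleotide supply fell most by median, at −0.58, with 5 of 5 genes lower. The order of the role groups was not tested, and with the mean of probe sets this group no longer fell most. Tk1, the cytosolic thymidine kinase that recycles thymidine in S phase, had log2 signals of 8.33, 8.36 and 8.37 with the antibody, against 9.02, 9.07 and 9.12 with IgG. It stood at 60.7% of the IgG level (−0.72, SE 0.05; adjusted p = 8.6e-05), the smallest adjusted p of all members. Tyms, which makes thymidylate from dUMP, had 7.47, 7.64 and 7.61 with the antibody, against 8.27, 8.32 and 8.09 with IgG (−0.65, SE 0.08; adjusted p = 0.0012). RNA of both Tk1 and Tyms was therefore lower, although Tyms varied more between arrays.

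Rrm2, the regulatory subunit of ribonucleotide reductase whose level limits the enzyme in S phase, had 9.21, 9.29 and 9.30 with the antibody, against 9.86, 9.81 and 9.86 with IgG (−0.58, SE 0.05). Rrm1, the large subunit, fell by 0.43 (SE 0.05). Dut, the dUTPase that keeps uracil out of DNA, fell by 0.56 (SE 0.05). Rrm2 and Dut each have a second probe set below the receptor-gene level in both groups, and with the mean of both the differences were −0.34 (adjusted p = 0.017) and −0.36 (adjusted p = 0.013). Uhrf1, which brings the maintenance methyltransferase to newly copied DNA, fell by 0.48 (SE 0.05; adjusted p = 0.00044).

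The windows of Tk1 and Tyms are shown as those of the members with the largest falls after Mcm8 for which a window was given, in lower case throughout because neither held an E2F-type match.
Tk1 (chr11:117825965-117826264, minus strand): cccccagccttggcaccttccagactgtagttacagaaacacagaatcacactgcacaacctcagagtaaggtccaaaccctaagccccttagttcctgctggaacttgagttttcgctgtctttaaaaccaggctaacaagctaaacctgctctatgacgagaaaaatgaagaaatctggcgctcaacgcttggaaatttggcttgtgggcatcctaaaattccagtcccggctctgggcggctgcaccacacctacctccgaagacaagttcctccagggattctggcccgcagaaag
Tyms (chr5:30073576-30073875, minus strand): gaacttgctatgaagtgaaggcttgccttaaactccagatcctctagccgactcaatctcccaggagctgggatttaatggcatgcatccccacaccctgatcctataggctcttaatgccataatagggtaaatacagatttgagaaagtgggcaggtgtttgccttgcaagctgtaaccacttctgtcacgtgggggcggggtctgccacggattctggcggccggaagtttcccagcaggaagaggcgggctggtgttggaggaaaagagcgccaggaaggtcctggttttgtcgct
The absence of these letters in 300 bases says nothing of E2F binding elsewhere at either gene.

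Other genes of nucleotide metabolism split. Of 28 measured, 20 were lower, 4 were higher and 4 did not pass, with a median of −0.37. Cad, which starts pyrimidine synthesis, fell by 0.63 (SE 0.07).

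The 4 that rose were led by Samhd1, whose product breaks down deoxynucleotides in cells that do not divide. Samhd1 had log2 signals of 11.28, 11.31 and 11.36 with the antibody, against 10.45, 10.45 and 10.39 with IgG, a 1.85-fold rise (0.89, SE 0.05; adjusted p = 3.6e-05). Dck, the deoxycytidine kinase of the salvage route, rose by 0.69 (SE 0.05), and Tk2, the mitochondrial thymidine kinase, by 0.61 (SE 0.05). The thymidine kinase of S phase was thus lower and that of mitochondria higher on the same arrays. Ctps2, a second CTP synthase, rose by 0.27 (SE 0.07; adjusted p = 0.036), and its call was lost without any of antibody replicates 1 (adjusted p = 0.079), 2 (0.11) and 3 (0.092) or IgG replicates 1 (0.11) and 2 (0.11). Macrophages also make SAMHD1 in general, and the macrophage markers had a median difference of 1.13 on these arrays; their part in the 4 rises was not tested.

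**Figure D2:**
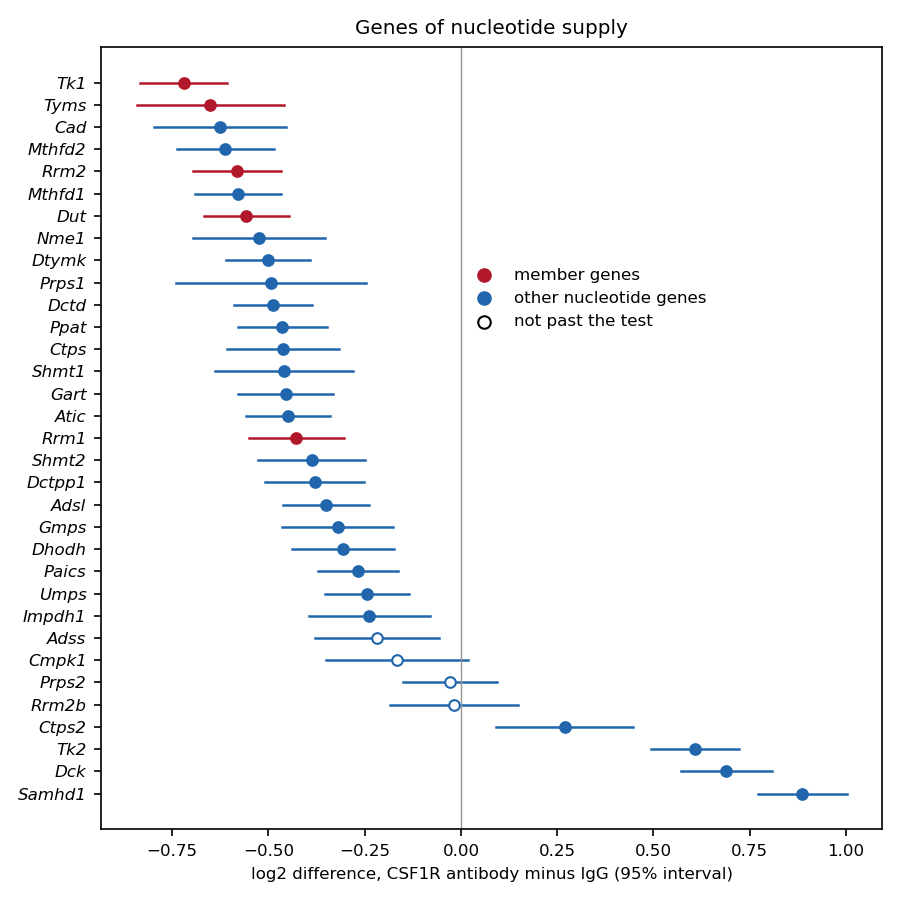
Points give the log2 difference, CSF1R antibody minus IgG, of each nucleotide gene, with limma's 95% interval as a line; red marks the 5 members, blue the 28 other genes, and open points those that did not pass the test. All red points lie below 0, from −0.72 for Tk1 to −0.43 for Rrm1, while Samhd1, Dck, Tk2 and Ctps2 lie above it.

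Other genes listed for licensing and initiation fell in 14 of 17 cases with 0 higher, at a median of −0.35. Cdc7, the kinase that fires origins, fell (−0.65, SE 0.06), as did Ticrr, which helps to load CDC45 (−0.65, SE 0.05), and its partner Mtbp (−0.62, SE 0.06). Among other fork genes, 13 of 16 were lower and 1 was higher, with a median of −0.41. The fork protection genes Clspn (−0.73, SE 0.05), Timeless (−0.65, SE 0.05) and Tipin (−0.64, SE 0.07) fell most. Pold4, the smallest subunit of polymerase delta, was higher by 0.24 (SE 0.07; adjusted p = 0.035). The rise did not pass without antibody replicates 1 (adjusted p = 0.082), 2 (0.11) or 3 (0.066) or IgG replicates 1 (0.11) or 3 (0.11).

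Genes that rebuild chromatin behind the fork were lower in 9 of 13 cases and higher in 0, with a median of −0.44. Hells, a chromatin remodeller, fell by 0.61 (SE 0.04). Cdca7, its partner (−0.57, SE 0.08), and Chaf1a, of the chromatin assembly factor (−0.57, SE 0.06), fell as well.

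The E2F factors and the RB family that restrain or drive these genes moved both ways. Of 18, 11 were lower and 3 were higher, with a median of −0.28. Rb1, the retinoblastoma protein that holds E2F factors back, had the same log2 signal, 9.18, on all 3 antibody arrays, against 7.78, 8.003 and 7.90 with IgG, a 2.44-fold rise (1.29, SE 0.07; adjusted p = 2.9e-05). Under the alternatives given below, the rise of Rb1 ran from 0.93 to 1.40 and passed the test each time. Its relative Rbl2, a subunit of the DREAM repressor in resting cells, rose by 0.38 (SE 0.06). E2f6, of the E2F family, rose by 0.39 (SE 0.09, limma adjusted p = 0.017). Its call was lost without antibody replicate 2 (adjusted p = 0.059) or 3 (0.057). Mybl2 and E2f8, both known to be raised in dividing cells, were lower (−0.56, SE 0.06, and −0.48, SE 0.04). E2f7 was lower as well, by 0.46 (SE 0.04). Rbl1, also of the RB family, fell by 0.31 (SE 0.05). The DREAM subunit genes Lin9 (−0.38, SE 0.08), Lin52 (−0.25, SE 0.05) and Lin54 (−0.25, SE 0.05) were lower too. Lin37, another of them, did not pass limma's test (adjusted p = 0.084). E2f2 (−0.47, SE 0.09) and E2f3 (−0.39, SE 0.08) were lower, as were Tfdp1 (−0.47, SE 0.04) and Tfdp2 (−0.37, SE 0.06). E2f4 and E2f5 did not pass limma's test (adjusted p = 0.25 and 0.26). E2f1, chosen after its values were seen, had 7.53, 7.47 and 7.52 with the antibody against 7.53, 7.51 and 7.47 with IgG. The groups of E2f1 thus overlapped (limma adjusted p = 0.96).

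Mitosis genes act later in the same cell cycle. Of 27 measured, 26 were lower and 1 was higher, with a median of −0.52. Cenpf, a kinetochore protein gene, fell (−0.67, SE 0.05), as did the checkpoint kinase gene Bub1 (−0.64, SE 0.07) and Birc5, whose product survivin guides chromosomes (−0.61, SE 0.06). Cenpa, the centromere histone gene, rose by 0.31 (SE 0.06; adjusted p = 0.011). The medians of −0.48 for replication and −0.52 for mitosis genes stand side by side without a test of their difference.

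**Figure D3:**
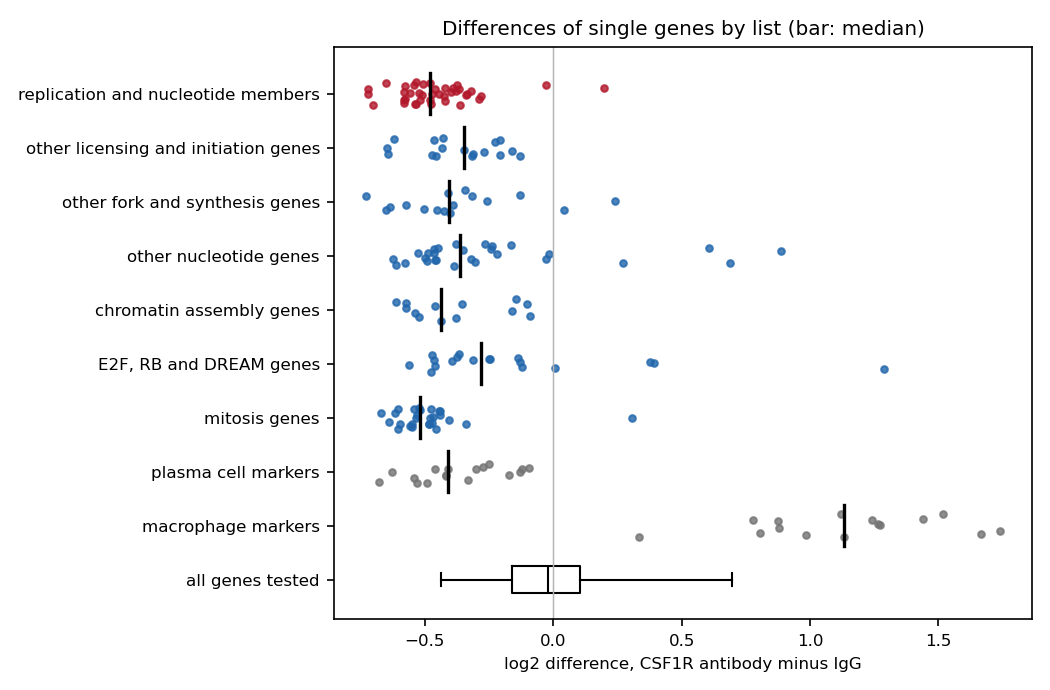
Each point is 1 gene, the x axis gives its log2 difference, CSF1R antibody minus IgG, and black bars are list medians; the box at the bottom gives the quartiles of all 22180 genes, with whiskers at the 5th and 95th percentile. The replication and mitosis lists lie almost wholly below 0, plasma cell markers have a median of −0.41, and macrophage markers lie above 0 with a median of 1.13.

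Promoter windows of both kinds of gene were searched for 3 motifs. An E2F-type match stood in the window of 18 of 34 replication and nucleotide genes with a window, or 52.9%, in 1 of 23 mitosis genes, or 4.35%, and in 5.67% of 16990 tested genes with a window. The cell cycle homology region (CHR), searched as TTTGAA or TTCGAA on either strand, is the site of the DREAM complex in mitotic genes. It stood in 6 of 34 replication genes, or 17.6%, 18 of 23 mitosis genes, or 78.3%, and 19.4% of tested genes. The NF-Y box CCAAT stood in 64.7%, 82.6% and 41.6% of the same sets. These shares describe the letters in each window and are no measure of binding.

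**Figure D4:**
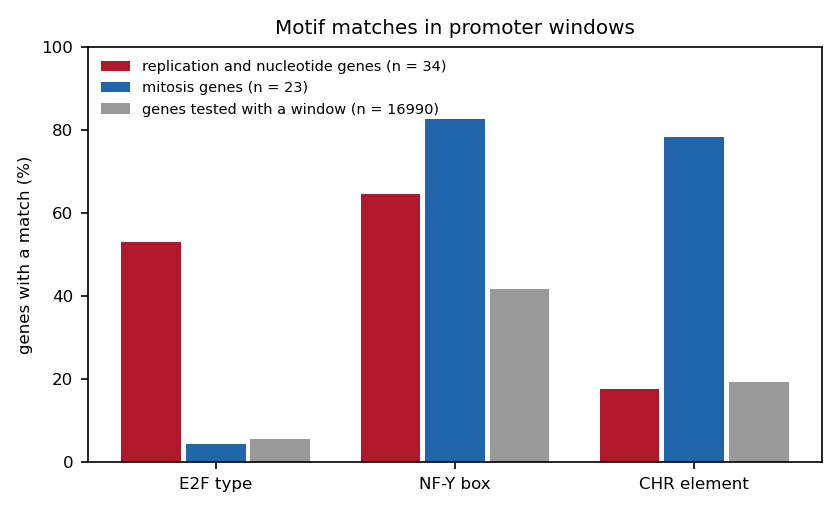
Bars give the share of genes, in percent, whose promoter window of 300 bases holds each motif on either strand: the red bars replication and nucleotide genes, the blue bars mitosis genes and the grey bars tested genes with a window. E2F-type matches stand in 52.9% of replication genes and 4.35% of mitosis genes, and CHR matches in 17.6% and 78.3%.

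The 17 measured replication genes with an E2F-type match had a median difference of −0.48, ranging from −0.72 to −0.03. The 16 with a window but no match had −0.47, ranging from −0.72 to −0.28. A relation of match and change was not tested, and 7 of the 41 members had no window. Across the 40 genes, which share the same arrays, the difference and the IgG level had a Spearman's rho of −0.03 and a Pearson's r of −0.23. The differences had an SD of 0.17 between genes, beside a median SE of 0.05 for a single gene.

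Markers of other cells moved on the same arrays. Summed over 17 plasma cell markers, linear signal lay between 19536 and 21224 with the antibody and between 25177 and 25793 with IgG. Over the 40 replication genes it lay between 17856 and 18440 with the antibody and between 24658 and 24815 with IgG. Among the plasma cell markers, Eaf2 (−0.68, SE 0.04) and Pou2af1 (−0.63, SE 0.05) fell, while Tnfrsf17 and Cd79a lay below the receptor-gene level in both groups. Ighm, with the highest log2 signal of the 17, did not pass limma's test (−0.13, SE 0.08, adjusted p = 0.31). Mzb1 (adjusted p = 0.084) and Derl3 (0.21), also above the receptor-gene level, did not pass it either. Stromal markers were lower for 6 of 11 and higher for 1, with a median of −0.38 and sums of 1127 to 1181 with the antibody against 2104 to 2170 with IgG. Acta2 (−1.20, SE 0.05), Postn (−1.08, SE 0.04) and Tagln (−0.81, SE 0.11) fell most, and Dcn, below the receptor-gene level in both groups, was the 1 higher. Without Acta2, chosen after its values were seen, the sums were 591 to 612 with the antibody and 850 to 888 with IgG. The 15 macrophage markers summed to 46070 to 48732 with the antibody and 25153 to 25575 with IgG. Of the 5 T cell, 8 granulocyte, 5 dendritic cell and 5 progenitor markers, 0 passed limma's test in either direction; at an unadjusted p under 0.05, 2 were lower and 0 higher. Of them, 4 T cell, 7 granulocyte, 3 dendritic cell and 4 progenitor markers lay below the receptor-gene level. Dividing myeloma cells, stromal cells and macrophages can all make replication RNA, and the part of each in the fall was not tested.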

How the data were processed

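The deposited files give 1 intensity per probe set and array on a linear scale. RMA and limma stand among the tools of the submitters' processing notes, without versions. RMA in its usual form gives every array the same distribution, which can hide a shift of most genes in 1 direction and understates fold changes. Background was not measured in the values used here, and the number of arrays limits the precision. The genome build behind the probe sets is not given in the sources used here.

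Values were taken as log2. Of 41345 probe sets, 23521 had 1 symbol in the platform annotation, 1814 had several and 16010 had none given. 99.2% of those with 1 symbol matched a RefSeq gene by Entrez identifier, and 0 symbols changed. For each of 22180 genes the probe set with the highest mean was used, with no filter on low signal. The 2 groups were set against each other in limma 3.58.1 under R 4.3.3, by lmFit and eBayes on 4 residual degrees of freedom. P-values were adjusted by Benjamini and Hochberg's method over all genes, and 0.05 was the threshold. SE is limma's moderated standard error. The test was also run on simulated data with independent noise and 200 changed genes, far fewer than were called here. That run checks the code and not these calls. The receptor-gene level is the 95th percentile, 4.92, of the means of 1394 odorant and pheromone receptor genes. Figures used matplotlib 3.10.9 in Python 3.11.15.

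Members, lists, motifs and the receptor-gene level were chosen with earlier results of these data known. All members could be named. So could, from each other list, the 3 genes with the largest change past the test. Outside the marker lists, genes called against the list's main direction could be named too. E2f2, E2f3, E2f4, E2f5, E2f7, Rbl1, Tfdp1, Tfdp2, Lin9, Lin37, Lin52 and Lin54 were named after their values were seen. So were Ighm, Mzb1 and Derl3. Promoters shown were those of the 3 called members with the largest change for which a window was given and of the member with the smallest change; the MCM stretches were added after the values were seen. Of the 41 members, 34 had a RefSeq promoter window (GRCm38.p6). A gene with several windows counted as holding a motif if any did. Alternatives were 3 other scalings of the arrays, a threshold of 0.01, tests of all single-symbol probe sets or of their mean per gene, a trend, robust variances or array weights in limma, low-signal filters (25th and 50th percentile), a replicate block and each array left out in turn. A filter at the receptor-gene level was a later addition, chosen after seeing the data.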

Additional observations from a re-analysis of the deposited data

How the results depend on the processing

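The count of 37 lower members stayed between 34 (cyclic loess) and 37 under all alternatives, with 35 to 37 when 1 array was left out, and the members' median stayed negative. With each array centred on its median they were −0.43 for the members, −0.30 for other licensing, −0.36 for other fork, −0.32 for other nucleotide, −0.39 for chromatin assembly, −0.24 for E2F and RB and −0.47 for mitosis genes. With cyclic loess they were −0.36, −0.24, −0.32, −0.25, −0.33, −0.17 and −0.40 in the same order. The members' median was −0.47 after quantile normalization and −0.44 with the mean of probe sets, which gave −0.43 for the 5 nucleotide supply genes. That mean left 2 of the 4 single-strand binding, flap and ligation genes lower, since the second probe sets of Rpa1 and Fen1 showed no such fall. Leaving out 1 array gave medians from −0.49 to −0.47 for the members and from −0.39 to −0.31 for other licensing genes. The 1 higher member, Rfc2, was not called (count 0) after quantile normalization, at a threshold of 0.01 or with the replicate block (adjusted p = 0.085), and the count ran from 0 to 1 when 1 array was left out. The 1 higher fork gene became 2 with cyclic loess and 0 at 0.01, and ran from 0 to 1 when 1 array was left out; the 1 higher mitosis gene became 0 at 0.01. Rfc3 turned to 0.016 with median centring and 0.038 with cyclic loess. E2f1 ran from −0.010 to 0.021 when 1 array was left out. The cause of the moves with scaling was not tested. Over all members and alternatives, 736 results kept their direction and their side of the threshold, 21 lost the call, 1 gained it and 2 turned sign without a call. The replicate numbers were not found to pair the arrays: correlations of same-numbered deviations were 0.031, −0.053 and 0.0030. With the replicate block 37 members were still lower, E2f6 (adjusted p = 0.053) and Ctps2 (adjusted p = 0.057) lost their calls, and all genes called numbered 2569 higher and 2980 lower.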

Other observations

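Exactly equal values on all 3 antibody arrays, with no tolerance, were found for 540 of 22180 genes, and on all 3 IgG arrays for 324. Among the members they were Gins1 and Rpa1 on the antibody arrays and 0 genes on the IgG arrays, and among the E2F and RB genes there were 3 on the antibody arrays, Rb1, E2f7 and E2f8. The probe set shared by Rfc4 and Eif4a2 averaged 9.62 ± 0.11 with the antibody and 10.19 ± 0.03 with IgG (SD, n = 3 each), a difference of −0.57 (SE 0.07; limma adjusted p = 0.0010 over all probe sets with a symbol), and cannot be assigned to either gene. Second probe sets of Dut, Pole and Rrm2 had means between 4.30 and 4.91 in both groups, and none of these passed the test (adjusted p = 0.45, 0.95 and 0.66).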
